A study of Mus musculus with 9 samples.

Results

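Ligands, a receptor, Smads and Id target genes of bone morphogenetic protein (BMP) signalling were examined in embryonic mouse telencephalon lacking the Hippo kinases Lats1 and Lats2. The 10 genes were taken by symbol, from a list chosen with earlier results of these data known. They were the ligand genes Bmp4, Bmp6 and Bmp7, the receptor gene Bmpr1a, the signal mediator Smad1, the inhibitory Smad6, and Id1, Id2, Id3 and Id4. All 10 were among the 34590 genes counted, and all 10 were among the 17182 that passed the filter on low counts. The comparison was between 4 libraries of a Lats1 and Lats2 double knockout (dKO), in which Nestin-Cre drives the deletion, and 5 wild-type (WT) libraries. Both groups were telencephalons at embryonic stage E12.5 on a mixed strain background, and the labels count 4 dKO and 5 control embryos. Nestin-Cre acts in neural progenitors and their descendants, so vessels, meninges and blood in the same dissection would keep Lats1 and Lats2. Whether the WT embryos carried Cre or floxed alleles, and which litters were used, is not given in the sources used here.

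BMPs are secreted dimers that bind pairs of type I and type II receptor kinases. The type I receptor phosphorylates Smad1, Smad5 and Smad9, which enter the nucleus with Smad4 and switch on target genes, among them the Id genes and the feedback inhibitors Smad6 and Smad7. Id proteins have a helix-loop-helix domain but no DNA-binding region, and they tie up the E proteins that proneural factors need as partners. In the forebrain, BMPs made at the dorsal midline and in the meninges pattern the cortical hem and choroid plexus, and Id genes are known for holding progenitors in an undifferentiated state.

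Gene counts ran from 16566763 to 45803152 in the dKO libraries and from 12906561 to 39263370 in the WT libraries, and the members had 58 to 17722 counts each. ERCC spike-ins, synthetic RNAs added per counted cell, allow a value per cell as well as one relative to the library. There were 79.1 ± 5.90 gene counts per spike-in count in dKO (SD, n = 4) and 58.1 ± 6.10 in WT (n = 5), and the median gene lay 0.43 higher on the log2 scale per cell. Lats1 fell to 59.8 ± 1.07 CPM (counts per 1000000 gene counts, after TMM scaling) in dKO, against 132 ± 4.55 CPM in WT, while Lats2, at 43.4 ± 9.46 and 27 ± 6.18 CPM, was higher in dKO (log2 0.69, against 0.42 and an adjusted p = 0.209 in edgeR with WT 1 and WT 5 alone); the deleted exons are not given, so its count does not check the label. WT 2, 3 and 4 stood apart in the share of their reads that the counting assigned to no feature. It was 39.3% to 41.3%, against 32.0% to 35.6% in the dKO libraries and 32.5% and 34.4% in WT 5 and WT 1 (95% normal-approximation intervals within 0.016 percentage points, counting error only). Which features were counted is not given, so such reads need not lie outside genes. Beside results that change without these 3 libraries stands the count or value with WT 1 and WT 5 alone, a fit with less power. Of the 8 telencephalon markers 4 fell relative to the library, beside 12% of all tested genes, and 2 fell with WT 1 and WT 5 alone. Their summed level was well above 0 everywhere (407 to 466 CPM in dKO, 557 to 592 CPM in WT).

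Relative to the library, 5 of the 10 members rose in dKO and 0 fell (edgeR, adjusted p under 0.05 over all genes), where 13.7% of all tested genes rose and 12% fell (25.7% in all). The 5 were Bmp6, Bmp4, Smad6, Id4 and Bmpr1a. Bmp7, Smad1, Id1, Id2 and Id3 did not pass. The median of the 10 members was 0.17 on the log2 scale, against -0.01 over all tested genes. DESeq2 and limma-voom also called 5 rises and 0 falls, and edgeR gave 0 falls at an unadjusted p under 0.05. Per cell, 8 members rose and 0 fell, where 61.1% of all tested genes rose and 0.698% fell (61.8% in all); the members without a call were Id1 and Id2. At 4 members the groups did not overlap relative to the library and dKO was higher, as at 12.6% of all tested genes, and at 0 members dKO was lower without overlap, as at 9.74%. Per cell, 6 members were higher in dKO without overlap, as were 48.4% of all tested genes. With WT 1 and WT 5 alone, 2 members rose relative to the library (Bmp6 and Id4) and 0 fell (4 and 0 at an unadjusted p under 0.05), where the same fit called 432 rises and 163 falls over all tested genes.

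**Figure D1:**
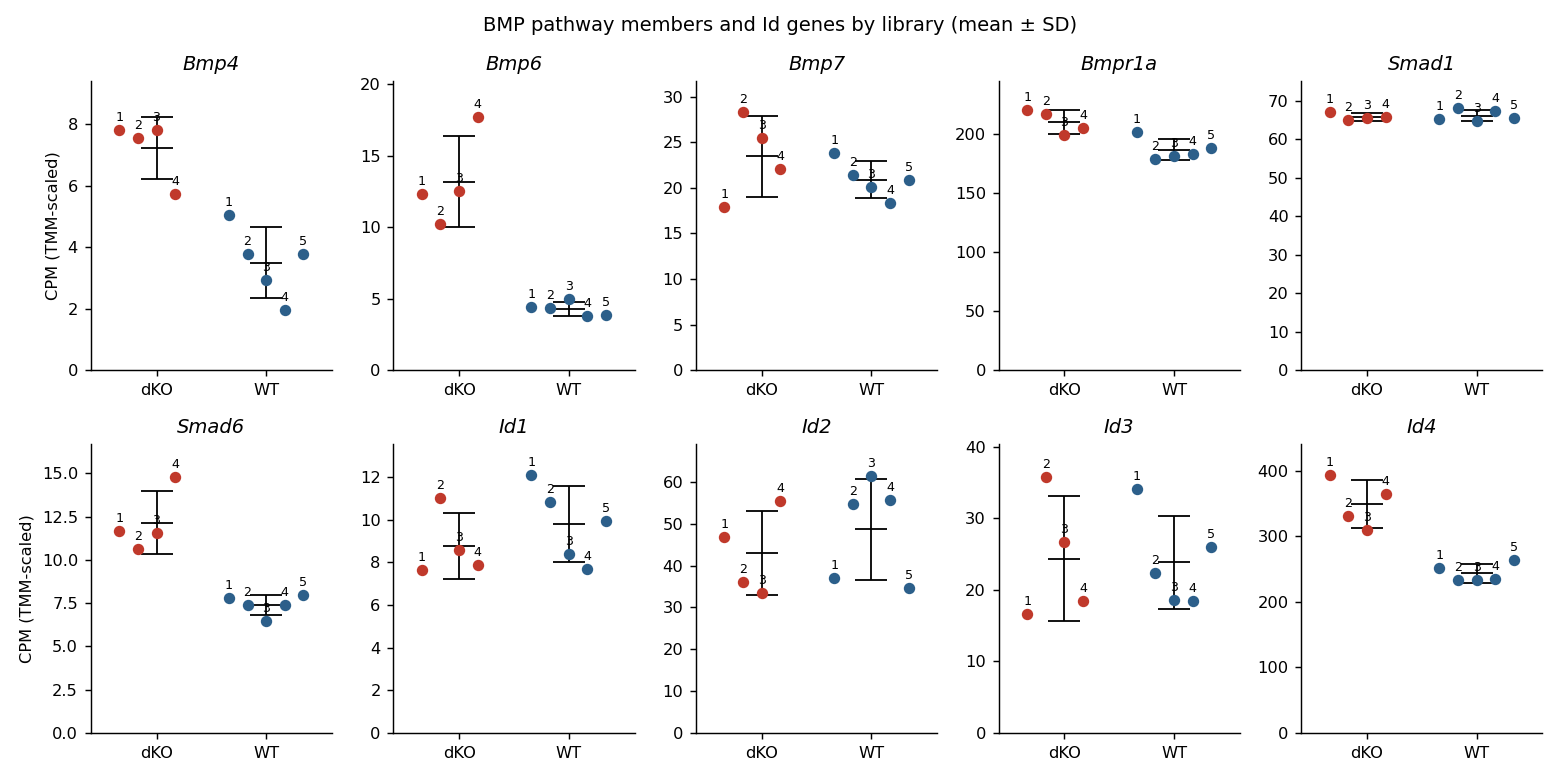
Level of each member in CPM after TMM scaling (y axes, linear from 0) in the 4 dKO and 5 WT libraries; numbers are replicate numbers, and bars show the mean and SD of each group. Bmp4, Bmp6, Smad6 and Id4 lie higher in every dKO library than in any WT library, while Id1, Id2 and Id3 spread widely and overlap.

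Bmp6 showed the largest rise among the members. Bmp6, a ligand also known as a regulator of iron metabolism, had 12.3, 10.3, 12.6 and 17.7 CPM in dKO 1 to 4, against 4.43, 4.35, 4.98, 3.78 and 3.87 CPM in WT 1 to 5. Every dKO library lay at more than 10 CPM and every WT library under 5 CPM, with dKO 4 the highest. The relative log2 fold change was 1.62 (SE 0.15, adjusted p = 6.11e-05, edgeR), or 3.07-fold with a 95% interval of 2.44 to 3.86. Per cell it was 2.06 (SE 0.17), or 4.16-fold. Without dKO 4 the relative value was 1.46, and with WT 1 and WT 5 alone it was 1.68 (adjusted p = 0.00961, edgeR). In the GENCODE M21 annotation, Bmp6 overlaps Txndc5, a gene for an endoplasmic reticulum protein on the opposite strand, and the strand setting of the counting is not given. Txndc5 itself rose by 0.76 (SE 0.05), with 130.2 ± 8.27 CPM in dKO and 76.8 ± 4.06 CPM in WT, and its part in the Bmp6 count was not tested. In bulk tissue, more cells of a type and more RNA per cell of that type cannot be told apart, here or for the genes below.

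Bmp4, the ligand best known from the dorsal midline and the hem, was low in both groups and higher in dKO. It had 7.83, 7.55, 7.82 and 5.74 CPM in dKO 1 to 4, against 5.05, 3.78, 2.95, 1.95 and 3.79 CPM in WT 1 to 5. The lowest dKO library, dKO 4, was close to the highest WT library, WT 1. The relative log2 fold change was 1.09 (SE 0.21, adjusted p = 0.00395, edgeR), or 2.12-fold with an interval of 1.53 to 2.94, and the per-cell value was 1.52 (SE 0.20). With WT 1 and WT 5 alone, the 2 WT libraries with the highest Bmp4, the relative value was 0.76 and did not pass (adjusted p = 0.0684, edgeR), while the per-cell value of 1.17 passed. Gm15217 and Gm15222, on the other strand at Bmp4, were at 0 and at 0.143 CPM in dKO and at 0 and 0.141 CPM in WT.

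Bmp7, the most abundant of the 3 ligands, did not pass relative to the library. It had 17.9, 28.3, 25.4 and 22.1 CPM in dKO 1 to 4, against 23.9, 21.4, 20.1, 18.3 and 20.9 CPM in WT 1 to 5. dKO 1 lay under every WT library, dKO 2 and dKO 3 lay over all of them, and dKO 4 lay among them. The relative log2 fold change of 0.17 did not pass (SE 0.12, 95% interval -0.09 to 0.43, adjusted p = 0.329, edgeR). Per cell Bmp7 rose by 0.62 (SE 0.14, adjusted p = 0.000416, edgeR), although dKO 1 still overlapped the WT range.

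The signalling step between ligand and nucleus held 1 small rise relative to the library. Bmpr1a, a type I receptor for Bmp4, had 220.4, 217, 199 and 205 CPM in dKO 1 to 4, against 202, 179, 182, 183 and 188 CPM in WT 1 to 5. dKO 3 fell below WT 1, the only overlap between the groups. The rise was small (log2 0.17, SE 0.04, adjusted p = 0.0161, edgeR) and did not pass with WT 1 and WT 5 alone (0.11, adjusted p = 0.356, edgeR). Smad1, the mediator that the receptor activates, was among the steadiest members, with 67.1, 64.9, 65.4 and 65.6 CPM in dKO 1 to 4, against 65.1, 68.1, 64.6, 67.4 and 65.3 CPM in WT 1 to 5. All 9 libraries lay within a few CPM of each other. Its relative log2 fold change was -0.01, with a 95% interval of -0.09 to 0.07, or 0.943-fold to 1.05-fold. Per cell, Smad1 rose by 0.43 (SE 0.11) and Bmpr1a by 0.61 (SE 0.10), beside the all-gene median of 0.43.

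Smad6, a BMP-induced inhibitor that blocks the activation of Smad1, rose. It had 11.7, 10.6, 11.5 and 14.8 CPM in dKO 1 to 4, against 7.80, 7.37, 6.45, 7.39 and 7.97 CPM in WT 1 to 5. The groups were separated by a gap, and dKO 4 was the highest. The relative log2 fold change was 0.71 (SE 0.11, adjusted p = 0.000908, edgeR), or 1.64-fold with an interval of 1.39 to 1.92, and per cell it was 1.15 (SE 0.15). The relative value of 0.61, with WT 1 and WT 5 alone, did not pass (adjusted p = 0.0614, edgeR). Without dKO 4, the library with the highest summed level of surface ectoderm markers (33.4 CPM, against 13.3 to 14.8 CPM in dKO 1 to 3 and 9.94 to 22.9 CPM in WT), the value was 0.61 and passed (adjusted p = 0.00157, edgeR). The part of these markers in the Smad6 value was not tested.

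Within the Id family, Id4 rose and the others did not pass relative to the library. Id4, the family member most tied to neural progenitors, was the most abundant of the 10 genes, with 393, 331, 309 and 365 CPM in dKO 1 to 4, against 251, 234, 233, 235 and 264 CPM in WT 1 to 5. The lowest dKO library lay above the highest WT library. Relative to the library its log2 fold change was 0.52 (SE 0.07, adjusted p = 0.000446, edgeR), or 1.44-fold with an interval of 1.29 to 1.59. It was 0.44 and still passed with WT 1 and WT 5 alone (adjusted p = 0.0394, edgeR). Per cell Id4 rose by 0.95 (SE 0.11), or 1.93-fold. A330033J07Rik, on the other strand at Id4, had 0.523 CPM in dKO and 0.522 CPM in WT. The summed level of the 10 radial glia markers also separated the groups, at 3919 to 4315 CPM in dKO and 2582 to 2958 CPM in WT, with 2 rises and 2 falls among the 10 genes (2 and 0 with WT 1 and WT 5 alone). Its part in the Id4 value was not tested.

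Relative to the library, the difference between the group means of Id1, Id2 and Id3 was smaller than the SD of either group. Id1, the most widely used readout of BMP signalling, had 7.65, 11, 8.56 and 7.87 CPM in dKO 1 to 4, against 12.1, 10.8, 8.39, 7.68 and 9.94 CPM in WT 1 to 5. All 4 dKO values fell within or just below the WT range. Its relative value was -0.15 (95% interval -0.47 to 0.18, adjusted p = 0.517, edgeR), and the per-cell value was 0.31 (interval -0.02 to 0.64, adjusted p = 0.0984, edgeR), which passed in the fit without dKO 1 (0.42, adjusted p = 0.0246, edgeR).

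Id3, often expressed with Id1, had 16.6, 35.7, 26.6 and 18.4 CPM in dKO 1 to 4, against 34, 22.3, 18.5, 18.4 and 25.9 CPM in WT 1 to 5. dKO 2 and WT 1 were the high libraries, and the ranges covered each other almost fully. The relative value was 0.05 (interval -0.46 to 0.56, adjusted p = 0.903, edgeR). Id3 rose per cell by 0.51 (SE 0.18, adjusted p = 0.0156, edgeR), but this call rested on single libraries. It was 0.22 without dKO 2 (adjusted p = 0.221), 0.44 without WT 2 (adjusted p = 0.113) and 0.17 with WT 1 and WT 5 alone (adjusted p = 0.471), none of which passed in edgeR. DESeq2 did not call it either, with an adjusted p = 0.159.

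Id2, which marks both progenitors and young neurons, had 46.8, 36.1, 33.5 and 55.4 CPM in dKO 1 to 4, against 37.1, 54.7, 61.4, 55.7 and 34.6 CPM in WT 1 to 5. The high WT libraries were WT 2, 3 and 4, the same 3 that stood apart by their reads assigned to no feature. WT 1 and WT 5 lay among the lower dKO libraries. Its relative value was -0.19 (interval -0.61 to 0.23, adjusted p = 0.504, edgeR) with all libraries and 0.26 with WT 1 and WT 5 alone (adjusted p = 0.489). Per cell, 0.24 did not pass (adjusted p = 0.185, edgeR), whereas 0.69 passed with WT 1 and WT 5 alone (adjusted p = 0.00233, edgeR). Id2 also rose per cell without WT 3 (0.39) or without dKO 3 (0.35). The summed level of the 10 neuron markers was 4532, 4645 and 4515 CPM in WT 2, 3 and 4 and 3823 and 4349 CPM in WT 1 and WT 5, and its part in the Id2 values was not tested.

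**Figure D2:**
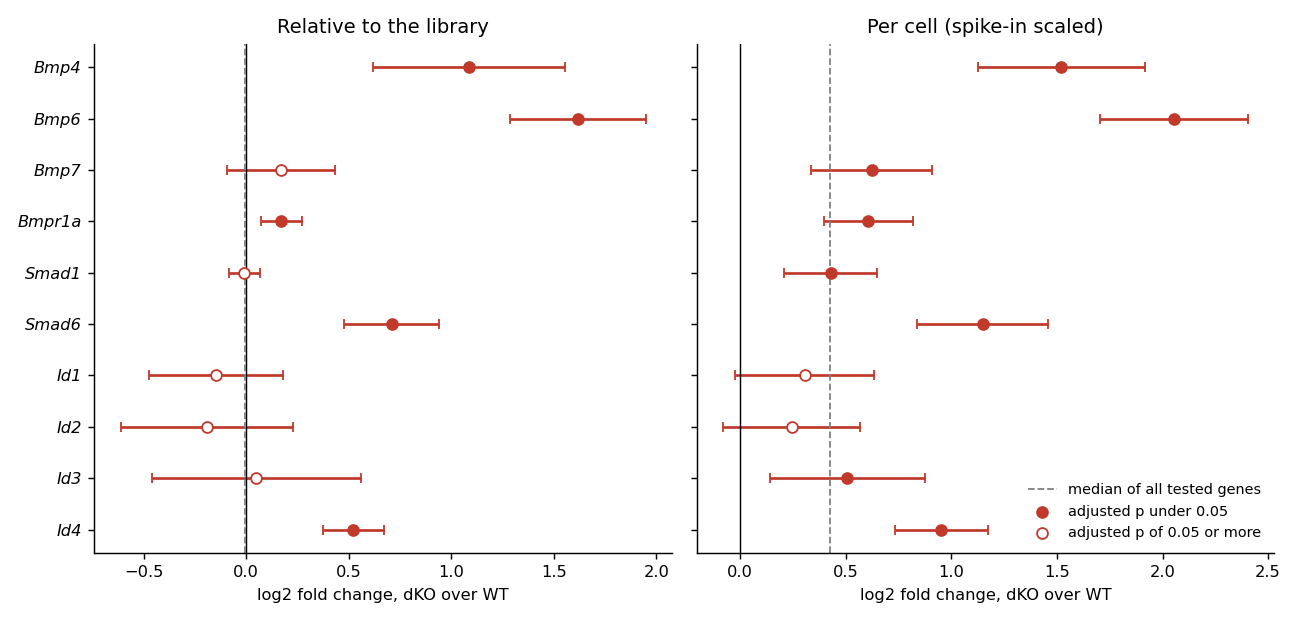
Fold change of each member, dKO over WT, on the log2 scale (x axes) relative to the library (left) and per cell (right), with 95% intervals; filled points passed the edgeR test, and the dashed line is the median of all tested genes. Bmp6, Bmp4, Smad6 and Id4 stand to the right of the dashed line in both panels, and the intervals of Id1, Id2 and Id3 cross it in both.

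Promoter sequences were compared for the inhibitor and the Id genes, since relative to the library Smad6 and Id4 rose while Id2 and Id3 did not pass. RefSeq promoters (GRCm38.p6) were at hand for 8 of the 10 members, and the 250 bases before the start site were searched on both strands for GGCGCC and GGAGCC, bound by BMP Smads, and for GGAATG, the core of TEAD sites. TEAD factors carry YAP and TAZ to DNA. Capitals below mark these motifs on either strand.

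Smad6 (chr9:64022060-64022309, minus strand): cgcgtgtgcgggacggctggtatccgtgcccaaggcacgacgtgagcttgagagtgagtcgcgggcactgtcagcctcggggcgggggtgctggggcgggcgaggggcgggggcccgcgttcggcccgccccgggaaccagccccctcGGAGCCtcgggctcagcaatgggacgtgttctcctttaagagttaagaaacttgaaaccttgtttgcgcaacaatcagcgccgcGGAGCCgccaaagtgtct

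Id4 (chr13:48260866-48261115, plus strand): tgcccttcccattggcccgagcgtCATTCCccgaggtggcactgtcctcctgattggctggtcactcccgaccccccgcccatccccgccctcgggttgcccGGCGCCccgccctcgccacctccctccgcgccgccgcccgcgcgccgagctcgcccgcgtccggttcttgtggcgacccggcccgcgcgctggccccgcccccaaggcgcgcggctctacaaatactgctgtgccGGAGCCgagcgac

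Id2 (chr12:25096093-25096342, minus strand): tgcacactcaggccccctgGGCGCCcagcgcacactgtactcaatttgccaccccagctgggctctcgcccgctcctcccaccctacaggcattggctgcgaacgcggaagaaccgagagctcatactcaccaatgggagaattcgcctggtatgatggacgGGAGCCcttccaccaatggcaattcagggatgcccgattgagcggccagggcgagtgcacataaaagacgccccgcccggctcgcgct

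Id3 (chr4:136143572-136143821, plus strand): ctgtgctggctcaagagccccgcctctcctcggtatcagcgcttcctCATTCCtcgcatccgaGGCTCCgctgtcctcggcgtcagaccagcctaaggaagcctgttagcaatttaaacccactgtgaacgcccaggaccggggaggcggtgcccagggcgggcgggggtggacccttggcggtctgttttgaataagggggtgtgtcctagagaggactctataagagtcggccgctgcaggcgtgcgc

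Smad6 held GGAGCC at 102 and 18 bases before its start, counted to the first base of the motif. Id4 held GGAATG at 226, GGCGCC at 148 and GGAGCC at 13 bases. A short stretch a little downstream of the RefSeq start of Id4 was in no GENCODE M21 transcript of the gene. The same stretch of the other 7 members was in a transcript, so the Id4 start and its distances are less certain. Id2 held GGCGCC at 231 and GGAGCC at 88 bases, and Id3 held GGAATG at 203 and GGAGCC at 187 bases. Over the 8 members, GGAGCC was in 5 promoters, GGCGCC in 3 and GGAATG in 2, against 26.0%, 9.59% and 12.6% of all 32851 promoters in the table. The short Smad motif GTCT was in 5 of the 8 and in 82.9% of all, and the E-box CANNTG, the site of basic helix-loop-helix factors, was in 3 and in 66.2%. The 8 promoters had 62.8% to 78.8% G and C, against a median of 52.4% over all promoters, and no account of base composition was taken. The GGAATG letters were in the promoter of Id4, which rose relative to the library, and of Id3, which did not pass on that scale, and were not in the window of Smad6.

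Divided by exon length, Id4 was the highest of the 10 genes in both groups, at 90.8 ± 9.63 CPM per kilobase in dKO and 63.3 ± 3.62 in WT. Bmpr1a came next (34.8 ± 1.65 and 30.9 ± 1.48), followed by Id3 (19.1 ± 6.84 and 18.7 ± 5.07) and Id2 (17.6 ± 4.14 and 20.0 ± 4.95), which did not differ from each other beyond their spread in either group. Smad1 lay at 12.7 ± 0.182 and 12.8 ± 0.296, above Id1 (7.56 ± 1.33 and 8.44 ± 1.54) and Bmp7 (6.39 ± 1.22 and 5.70 ± 0.551). The lowest were Smad6 (4.09 ± 0.610 and 2.49 ± 0.197), Bmp6 (3.68 ± 0.882 and 1.19 ± 0.135) and Bmp4 (3.50 ± 0.487 and 1.70 ± 0.555). The ranges of these 3 overlapped each other in dKO.

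Id4 and Bmp6 made up more of their families, and Bmp7 less, in every dKO library than in any WT library. Of the summed Id level per kilobase, Id4 made up 67.2% ± 4.34 in dKO (SD, n = 4) and 57.4% ± 2.58 in WT (n = 5), without overlap (62.2% to 72.5% against 55.2% to 61.5%). Id1 made up 5.62% ± 1.02 in dKO and 7.61% ± 1.1 in WT. Of the summed ligand level, Bmp6 made up 27.2% ± 6.70 in dKO and 14.0% ± 1.90 in WT, Bmp4 26.0% ± 4.54 and 19.4% ± 4.05, and Bmp7 46.8% ± 6.03 and 66.6% ± 2.83. The shares of Bmp6 and Bmp7 did not overlap between the groups. These shares repeat the fold changes above on another scale and were not tested.

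**Figure D3:**
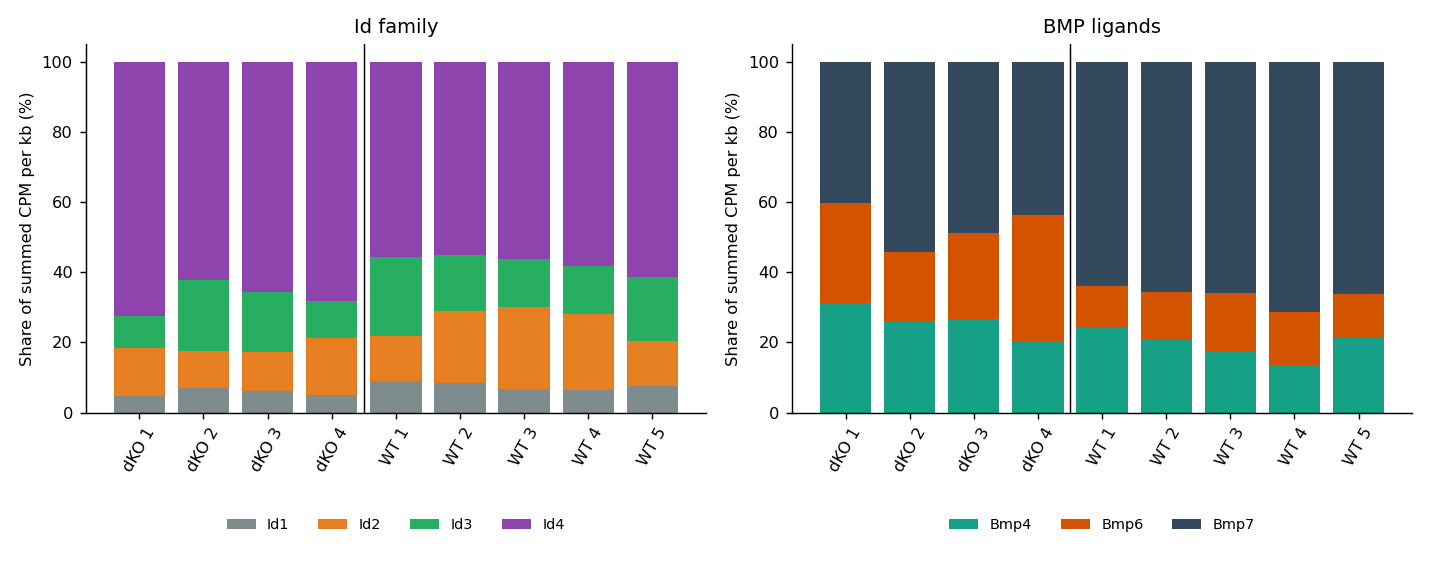
Share of each gene in the summed level per kilobase of the Id family (left) and of the 3 BMP ligands (right), in percent (y axes), for the 4 dKO libraries and the 5 WT libraries. Id4 takes 62.2% to 72.5% of the Id level in dKO and 55.2% to 61.5% in WT, and Bmp7 takes 40.4% to 54.2% of the ligand level in dKO and 63.9% to 71.4% in WT.

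Other genes of the pathway were taken from 6 lists holding 85 genes, of which 71 were tested. On the relative scale 13 went up and 10 went down past the threshold (18.3% and 14.1%, beside 13.7% and 12% of all tested genes), and their median was -0.01. Per cell 42 rose and 0 fell (59.2%, beside 61.1%). There was 1 gene lower per cell at an unadjusted p under 0.05 in edgeR, and limma-voom called 1 fall and DESeq2 0. With WT 1 and WT 5 alone, there were 8 relative rises and 0 relative falls (13 and 5 at an unadjusted p under 0.05).

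Genes that modulate BMPs outside the cell or at the membrane were the longest of the 6 lists. On the relative scale 8 of 22 rose and 3 fell, beside 13.7% and 12% of all tested genes. The median was 0.19 (0.0037 with WT 1 and WT 5 alone). Per cell 14 rose and 0 fell (10 and 0 with WT 1 and WT 5 alone), beside 61.1% of all tested genes that rose. The antagonist Nog, which binds Bmp4 and Bmp7, averaged 15.3 ± 2.82 CPM in dKO and 7.32 ± 1.30 CPM in WT (log2 1.08, SE 0.14, adjusted p = 0.000437, edgeR). Bambi, a pseudoreceptor without a kinase domain, averaged 13.4 ± 3.00 CPM in dKO and 6.37 ± 0.735 CPM in WT (1.07, SE 0.14). The tolloid-like proteases Tll2 (2.80, SE 0.33) and Tll1 (1.46, SE 0.19), of the family that cleaves the antagonist chordin, rose as well. Tll2 had 18.4 ± 10.3 CPM in dKO and 2.62 ± 0.519 CPM in WT. The other rises were in Fstl1 (0.56, SE 0.06), the activin-binding Fstl3 (3.03, SE 0.36, at most 0.295 CPM in any WT library), Bmper (0.54, SE 0.07), which binds BMPs, and Crim1 (0.38, SE 0.12). Fstl3 had 0 to 9 counts in the WT libraries and 35 to 104 in the dKO libraries. It passed the filter on low counts only through dKO, so its place among the 8 rises is no support. The falls were in Fstl4 (-1.0, SE 0.22), Kcp (-0.56, SE 0.18) and Fstl5 (-0.27, SE 0.09). The 7 rises other than Crim1 still passed with WT 1 and WT 5 alone, where Crim1 had 0.41; none of the 3 falls did (-0.68, -0.64 and -0.14). Nog, Bambi, Tll1 and Crim1 were singled out after their values were seen.

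The remaining ligands and receptors showed no rise relative to the library. Of 15 other ligand genes 6 were tested and 0 passed in either direction. This held in edgeR, DESeq2 and limma-voom alike and at an unadjusted p under 0.05. Bmp3, the first by adjusted p, had -0.75 (SE 0.46, adjusted p = 0.255, edgeR), and Gdf10 had -0.27. With WT 1 and WT 5 alone Bmp3 had 0.55, the other sign, and did not pass (adjusted p = 0.559, edgeR). Of 10 other receptors and coreceptors 3 fell and 0 rose (DESeq2, limma-voom and unadjusted p-values under 0.05 gave 0 rises too). They were the type I receptor Acvr1 (-0.40, SE 0.10), the coreceptor Rgma (-0.33, SE 0.08) and the type II receptor Bmpr2 (-0.21, SE 0.06), none of which passed with WT 1 and WT 5 alone (-0.29, -0.18 and -0.09). Bmpr1b, the type I receptor closest to Bmpr1a, had 0.12 (SE 0.07, adjusted p = 0.273, edgeR). Per cell, 5 of the 10 rose and 0 fell (4 and 0 with WT 1 and WT 5 alone), beside 61.1% of all tested genes that rose. Bmpr1b was among the 5 (0.56, SE 0.13, adjusted p = 0.000552, edgeR), while Acvr1, Rgma and Bmpr2 did not pass per cell (0.04, 0.11 and 0.22).

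Inside the cell, of 17 other Smads and regulators 2 rose and 1 fell relative to the library, beside 13.7% and 12% of all tested genes. The phosphatase gene Ctdsp1 (0.35, SE 0.07) and the Smad corepressor Ski (0.29, SE 0.07) rose, and the Smad-interacting repressor Zeb2 fell (-0.45, SE 0.13), while Lemd3 had -0.16 and did not pass. With WT 1 and WT 5 alone Ctdsp1 had 0.29, Ski 0.26 and Zeb2 -0.14, and none of them passed. Of 13 other BMP-responsive transcription factors 6 rose and 0 fell per cell (4 and 0 with WT 1 and WT 5 alone), beside 61.1% of all tested genes that rose. Relative to the library 3 of the 13 rose and 2 fell, beside 13.7% and 12% of all tested genes. Atoh8 averaged 6.06 ± 0.738 CPM in dKO and 3.33 ± 0.833 CPM in WT (0.89, SE 0.17, adjusted p = 0.00376, edgeR), and did not pass with WT 1 and WT 5 alone (0.55). Hes1, better known as a Notch effector, rose by 0.85 (SE 0.09) and passed there too. Runx2 rose by 1.31 (SE 0.36), Hey1, also a Notch effector, fell by 0.35, and Prdm16 fell by 0.20; these 3 did not pass with WT 1 and WT 5 alone (0.86, -0.45 and -0.08). Of the 3 E protein genes whose products bind Id proteins, Tcf4 fell (-0.51, SE 0.11, adjusted p = 0.00645, edgeR), with 504 ± 51.1 CPM in dKO and 718 ± 112 CPM in WT, and Tcf3 had 0.03 and did not pass. Per cell, Tcf4 had -0.08 and did not pass, and Tcf3 rose by 0.48. The Tcf4 value relative to the library was -0.25 and did not pass with WT 1 and WT 5 alone (adjusted p = 0.160, edgeR).

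Several of these calls, with adjusted p = 0.019 to 0.0458 (edgeR) with all libraries, did not pass in fits with 1 library left out. Such fits hold fewer libraries and have less power. Leaving out WT 2, WT 3 or WT 4, one at a time, ended the calls of Crim1, Kcp, Fstl5, Bmpr2, Zeb2 and Prdm16. Other single libraries ended them too: WT 5, dKO 1 or dKO 4 for Crim1, and WT 1, WT 5 or dKO 4 for Kcp. For Fstl5 these were WT 5, dKO 1, dKO 2 or dKO 3, and for Bmpr2 dKO 2 or dKO 4. For Zeb2 they were dKO 2 or dKO 3, and for Prdm16 dKO 1, dKO 3 or dKO 4. Leaving out dKO 2 or dKO 4 ended the call of Runx2. With any 1 of the 9 libraries left out, the relative log2 values ran over 0.26 to 0.50 for Crim1, -0.38 to -0.73 for Kcp, -0.21 to -0.33 for Fstl5 and -0.17 to -0.24 for Bmpr2. They ran over -0.38 to -0.53 for Zeb2, -0.15 to -0.23 for Prdm16 and 1.09 to 1.52 for Runx2, each keeping its direction.

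**Figure D4:**
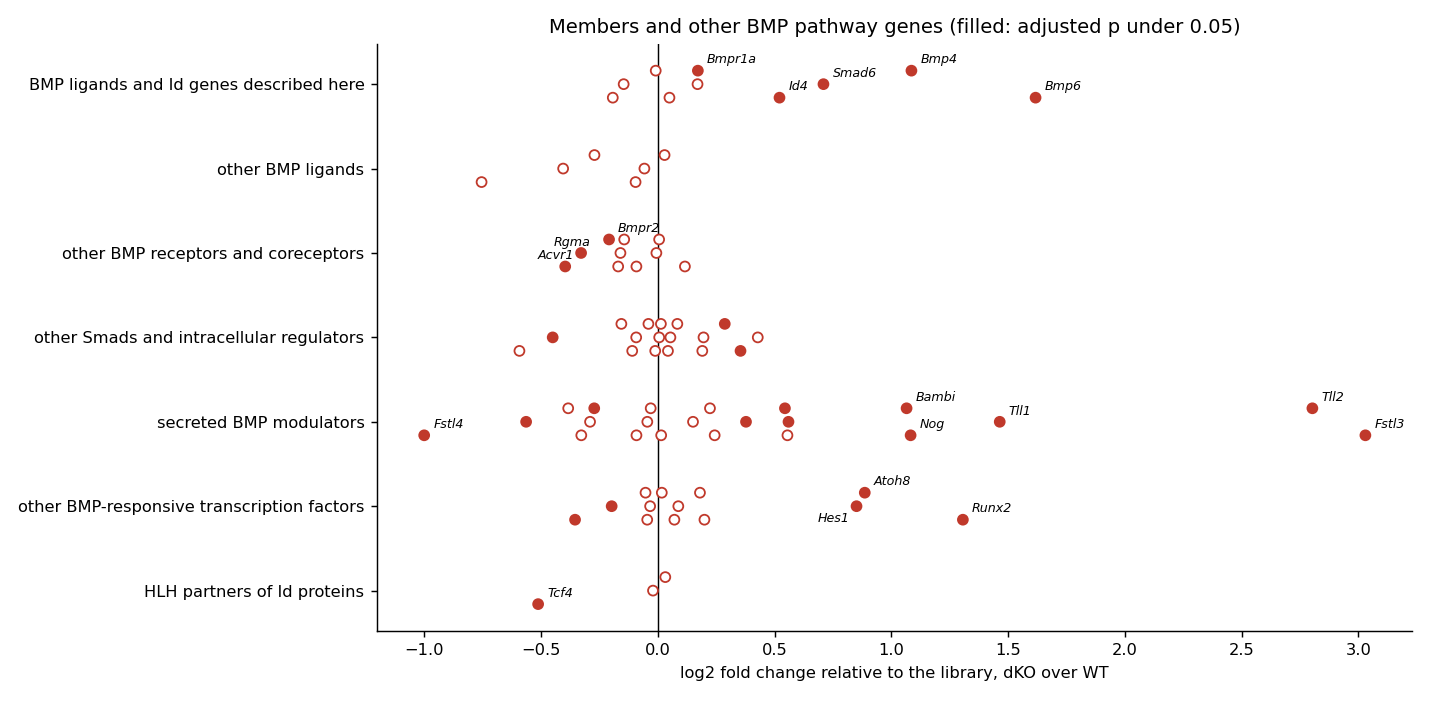
Log2 fold change relative to the library, dKO over WT (x axis), of every tested gene in the member list and the 6 wider lists; each point is 1 gene, filled where it passed the edgeR test, and named where it is a member, a receptor or an E protein gene that passed, or passed with a change beyond 0.8 on the log2 scale. Filled points farthest right are the modulators Fstl3 (3.03, which passed the filter on low counts only through dKO) and Tll2 (2.80). The member Bmp6 (1.62) and the modulator Tll1 (1.46) follow, while 0 of the other ligands are filled.

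Markers of the other cell types that the dissection could hold, and of neurons, were counted in the same way. Relative to the library, 1 of 12 endothelial markers rose and 0 fell (280 to 361 CPM summed in dKO, 283 to 365 CPM in WT), and 0 of 14 pericyte and meningeal markers passed (937 to 1293 CPM in dKO, 1036 to 1256 CPM in WT). Of 11 choroid plexus and cortical hem markers 1 rose and 1 fell (271 to 362 CPM in dKO, 206 to 542 CPM in WT). Of 5 surface ectoderm markers tested 2 rose (13.3 to 33.4 CPM in dKO, 9.94 to 22.9 CPM in WT). Of 10 microglia markers 1 fell (71.7 to 91.3 CPM in dKO, 61.4 to 75.7 CPM in WT), and of 8 red cell markers 2 fell (2168 to 3709 CPM in dKO, 2869 to 6954 CPM in WT). Of 10 neuron markers 6 fell (3274 to 3781 CPM in dKO, 3823 to 4645 CPM in WT). With WT 1 and WT 5 alone, 1 neuron marker fell and 3 red cell markers fell, 1 surface ectoderm and 1 choroid or hem marker rose, and 0 endothelial, pericyte and meningeal or microglia markers passed. The same fit called 432 rises and 163 falls over all tested genes. Per cell, where 61.1% of all tested genes rose, 2 of 10 neuron markers rose and 0 fell, also with WT 1 and WT 5 alone. Per cell rises numbered 8 endothelial, 8 pericyte and meningeal, 6 choroid or hem, 3 surface ectoderm and 8 microglia markers, with 0 falls. With WT 1 and WT 5 alone these rises were 4, 5, 8, 2 and 5, where 8439 of all 17182 tested genes rose per cell. Of the red cell markers 1 fell per cell, and 5 with WT 1 and WT 5 alone. None of these lists held a marker at 0 in all 9 libraries. Their part in the members' values was not tested.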

How the data were processed

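RNA was measured by total RNA sequencing of 9 telencephalon libraries. Per the labels' protocols, 1000000 counted cells per library received ERCC spike-ins before extraction, and libraries were made from 350 ng of RNA with a stranded kit and read as 100 bp pairs. The deposited files hold the authors' raw read counts per gene symbol, not normalized; the tools named in the submitters' processing notes are STAR and HTSeq, and the build is mm9. No source used here gives their versions, the annotation or the strand setting. The 5 counter rows hold reads in no feature, ambiguous, of low quality, not aligned or not uniquely aligned. These rows and the 92 spike-ins were kept out of gene totals. Reads in no feature were 32.0% to 35.6% of reads in dKO and 32.5% to 41.3% in WT.

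Genes passing edgeR's filterByExpr were tested with edgeR 4.0.16 in R 4.3.3 (quasi-likelihood F test; a call needed p under 0.05 after Benjamini-Hochberg adjustment over 17182 genes). The relative fit used TMM scaling, and CPM values were computed on it. The per-cell fit used spike-in totals as library sizes, so its p-values share 9 spike-in totals. Standard errors were the fold change over the root of F. Exon lengths came from GENCODE M21 basic (exon union), used without coordinates. Gene counts per spike-in count were compared by an exact permutation test over 126 assignments (two-sided p = 0.00794, the smallest possible). Replicate numbers were not treated as pairs. Alternatives were DESeq2 1.42.0, limma-voom 3.58.1, other scalings and filters, each library left out, WT 1 and WT 5 alone, and a replicate block. No replicate pair agreed within sampling noise. The members and lists were chosen with earlier results of these data known. Named genes were all members, the 4 genes with the smallest adjusted p in each wider list (2 in lists with fewer than 10 tested), and those called against their list's majority.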

Additional observations from a re-analysis of the deposited data

Results flagged for a closer look

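In 40 groups of values (10 members, 2 genotypes, 2 scalings), 2 samples stood far from the rest of their group, and chance alone flags about 1 group in 20. Bmp4 in dKO 4 was at 5.74 CPM, against 7.55 to 7.83 CPM in the other dKO libraries, a gap of 0.865 of the group's range; the relative log2 fold change of Bmp4 was 1.18 without dKO 4. Bmp6 in WT 3 was at 3.17 counts per 10000 spike-in counts, against 2.16 to 2.41 in the other WT libraries, a gap of 0.753 of the range; it lay far under the dKO libraries, which had 8.61 to 14.6.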

How the results depend on the processing

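Relative to the library, the count of 5 members that rose was 5 in each fit with 1 library left out and in every other alternative except WT 1 and WT 5 alone, where it was 2. The 8 per-cell rises became 7 to 9 with 1 library left out, and 0 members fell in any alternative under either scaling. Over 170 member values per scaling, 167 relative and 162 per-cell ones kept their side of the threshold and, where called, their direction, 3 relative and 4 per-cell ones no longer passed and 4 per-cell ones passed in addition; the cause was not tested. With WT 1 and WT 5 alone, all genes gave 432 rises and 163 falls relative to the library and 43 falls per cell, the wider lists gave 8 rises and 0 falls relative to the library, Bmp3 had 0.98 per cell against -0.32 with all libraries, and gene counts per spike-in count differed by 0.45 on the log2 scale (exact permutation p = 0.0667, the smallest that 15 assignments allow). Rises then made up 72.6% of relative calls, against 53.3% with all libraries. Falls per cell numbered 120 over all genes, 79 in DESeq2, 187 without a filter and 67 to 203 with 1 library left out. In the wider lists, falls per cell were 1 in limma-voom, 1 with a mean count of at least 50 and 0 to 2 with 1 library left out, and relative falls were 5 to 9 with 1 library left out (5 without WT 2, WT 3 or WT 4). Relative falls over all genes were 1369 without WT 4 and up to 2275, and relative rises 1782 to 2456. Rises per cell were 8879 to 11454, and the log2 difference in gene counts per spike-in count was 0.39 to 0.50. With the replicate block, 5 members rose relative to the library and 8 per cell, and over all genes there were 1883 rises and 1603 falls relative to the library and 10463 and 146 per cell. The samples share only a number: deviations of same-numbered libraries correlated at -0.15, -0.13, -0.26 and 0.14 over genes, and libraries did not each correlate best with their own number. The relative intervals of Id1, Id2 and Id3 reach -0.61 and 0.56, so smaller changes in these genes were not resolved.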

Other observations

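In the dKO libraries Bmp7, Id1 and Id3 had the same order, dKO 2 over dKO 3 over dKO 4 over dKO 1. The summed level of the 14 pericyte and meningeal markers had that order too, at 937, 1293, 1203 and 1172 CPM in dKO 1 to 4. In WT 1 to 5 these markers summed to 1062, 1036, 1046, 1122 and 1256 CPM, while Bmp7, Id1 and Id3 were all highest in WT 1 and lowest in WT 4. Red cell markers summed to 2748, 3709, 3422 and 2168 CPM in dKO 1 to 4 and to 6954, 3996, 2869, 2936 and 4513 CPM in WT 1 to 5, also highest in dKO 2 and in WT 1. These orders were noticed in the data and were not tested.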
